A study of Mus musculus with 12 samples.

Results

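Dendritic cell subset genes were taken as the 10 rows whose gene name is Batf3, Irf8, Irf4, Zbtb46, Flt3, Clec9a, Cd209a, Clec10a, Siglech or Fscn1, out of 17920 genes listed for each lung library. The lungs came from male BALB/c mice aged 6 to 8 weeks and weighing 20 g. Of 24 mice in 4 groups of 6, 3 per group were sequenced after 14 days, with polyadenylated RNA from 1 mouse in each library. The groups were LPS+bLF, LPS, bLF and control. LPS is lipopolysaccharide, the outer membrane component of Gram-negative bacteria used here to injure the lung, and was given as 50 µL at 1 µg/µL. bLF is bovine lactoferrin, an iron-binding milk protein, and was given at 200 mg/kg per day. The labels give neither the route of either agent nor the day of LPS. They do not say whether control mice received a vehicle. The groups therefore ask what LPS does to the lung, what bLF does without LPS, and what bLF does in lungs that received LPS.

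Dendritic cells take up antigen in the airway wall and alveolar septa, carry it to lymph nodes and present it to T cells. Conventional dendritic cells develop under the cytokine receptor Flt3 and divide into cDC1, which depend on Batf3 and Irf8 and cross-present antigen to CD8 T cells, and cDC2, which depend largely on Irf4. Plasmacytoid dendritic cells make type I interferon, and mature migratory dendritic cells carry actin-bundling fascin, the product of Fscn1. Most of these genes are also used outside dendritic cells: Irf8 by monocytes and B cells, Irf4 by plasma cells and activated T cells, Zbtb46 by endothelium, and Clec10a by macrophages. In whole lung, fewer cells of a type and less RNA per cell cannot be told apart.

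Batf3, Flt3 and Siglech were the members with groups that did not overlap in FPKM in a tested comparison. Cd209a was the 1 member called under any alternative, so the promoters of these 4 genes are shown. They are the 250 bases before the start given in the RefSeq promoter table for GRCm38.p6, each read 5′ to 3′ on the gene's strand. The Batf3 promoter lies at chr1:191098164-191098413 on the + strand, Flt3 at chr5:147400490-147400739 on the - strand, Siglech at chr7:55767934-55768183 on the + strand and Cd209a at chr8:3748985-3749234 on the - strand. Capitals mark matches on either strand to CACGTG, the E-box bound by bHLH-type factors, and to GAGGAA, a core of PU.1 sites. They also mark TATAAA, the sequence of the TATA box, at any position, TGANTCA, an AP-1 site, and an interferon response element. Matches to GGGCGG, the Sp1 box, were counted but left in lower case.
Batf3: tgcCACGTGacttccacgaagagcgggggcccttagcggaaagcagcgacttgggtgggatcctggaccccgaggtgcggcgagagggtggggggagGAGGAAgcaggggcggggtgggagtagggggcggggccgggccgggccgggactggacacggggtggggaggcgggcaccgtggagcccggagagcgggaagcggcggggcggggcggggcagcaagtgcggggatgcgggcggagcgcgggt
Flt3: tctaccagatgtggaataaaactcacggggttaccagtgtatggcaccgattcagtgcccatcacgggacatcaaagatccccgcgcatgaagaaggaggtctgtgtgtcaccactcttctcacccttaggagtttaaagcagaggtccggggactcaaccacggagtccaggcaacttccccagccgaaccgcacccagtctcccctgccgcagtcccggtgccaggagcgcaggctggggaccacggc
Siglech: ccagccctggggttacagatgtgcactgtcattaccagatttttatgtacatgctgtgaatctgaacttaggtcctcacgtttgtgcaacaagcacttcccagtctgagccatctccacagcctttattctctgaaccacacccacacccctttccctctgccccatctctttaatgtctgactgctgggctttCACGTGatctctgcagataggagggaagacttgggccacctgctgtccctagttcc
Cd209a: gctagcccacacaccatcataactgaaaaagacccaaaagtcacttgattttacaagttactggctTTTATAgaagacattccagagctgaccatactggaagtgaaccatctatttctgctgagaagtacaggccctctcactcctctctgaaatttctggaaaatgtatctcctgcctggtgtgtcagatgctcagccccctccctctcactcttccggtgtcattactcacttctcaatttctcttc
With positions counted back from the start, Batf3 had CACGTG at -247, GAGGAA at -153 and 5 Sp1 boxes, in a promoter of 76.0% G+C. Siglech had CACGTG at -56, Cd209a had TATAAA on the opposite strand at -184, and Flt3 had none of the 6 motifs. The motifs were chosen after the promoters had been read. The Batf3 Sp1 boxes at -46 and -41 share a base, and no other matches in these 4 promoters overlapped. Over the 9 members with a promoter in the table, which does not list Clec10a, CACGTG occurred in 2, GAGGAA in 2, TATAAA in 5, TGANTCA in 1, GGGCGG in 3 and the interferon response element in 0. Among 32851 mouse promoters of the same length these motifs occurred in 6.02%, 23.3%, 12.4%, 6.75%, 32.7% and 2.98%, in the same order. These shares are per promoter, whereas members were counted per gene, and the 9 members have 10 promoters because Irf8 has more than 1. The TATAAA matches were at -226 in Clec9a, -184 in Cd209a, -31 in Irf8, -26 in Irf4 and -31 in Fscn1. The TGANTCA match was in Zbtb46, whose listed promoter at chr2:181424389-181424638 lies inside the span of the gene. The listed Siglech promoter ends at 55768183, past the start of the gene's span at 55768154, so its last bases lie inside that span. Its positions are counted from the start in the promoter table.

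Total counts per library were 16714327 to 17820645, and all 10 genes passed the filter of at least 0.5 FPKM in at least 3 of 12 libraries, as did 13735 of the 17920 genes in all. FPKM is fragments scaled to transcript length and library size, so levels can be compared between genes. Alveolar epithelial genes marked every library as lung, with Sftpc at 43000.33 FPKM or more and Ager at 3701.01 FPKM or more. LPS replicate 1 and LPS+bLF replicate 2 stood apart. The median correlation of their log2 CPM (counts scaled to library size) with the other libraries was 0.884 and 0.918, against 0.946 to 0.973 elsewhere, and LPS replicate 1 listed 3067 genes at 0 against 1499 to 1963 in the rest. Several of the values that move with either library are given with and without it.

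Subset markers ranged widely in level. The median over libraries was under 1 FPKM for 5 of 14 cDC1 genes, 2 of 13 cDC2 genes and 6 of 16 plasmacytoid genes, and 10 FPKM or more for 4, 3 and 5 of them. Of the selective receptors, the cDC1 chemokine receptor Xcr1 reached at most 0.58 FPKM and the plasmacytoid Ccr9 at most 0.24 FPKM, whereas Bst2, which many cells make under interferon, lay between 150.11 and 278.42 FPKM. Of the members, Fscn1 was highest at 32.2 ± 13.3 FPKM (mean ± SD, n = 12 libraries) and Irf8 next at 15.0 ± 3.87 FPKM. Then came Batf3 at 5.92 ± 2.78, Clec10a at 5.68 ± 4.69 and Zbtb46 at 5.30 ± 0.83 FPKM, 3 neighbours that lay within each other's SD. Cd209a averaged 3.26 ± 2.84, Siglech 2.03 ± 2.08 and Flt3 1.56 ± 0.593 FPKM, and Irf4 and Clec9a were lowest at 0.831 ± 0.392 and 0.701 ± 0.161 FPKM. Irf8 exceeded Batf3 in 12 of 12 libraries and Flt3 exceeded Irf4 in 11 of 12, whereas Clec10a exceeded Zbtb46 in 3 of 12 and Irf4 exceeded Clec9a in 6 of 12.

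**Figure D1:**
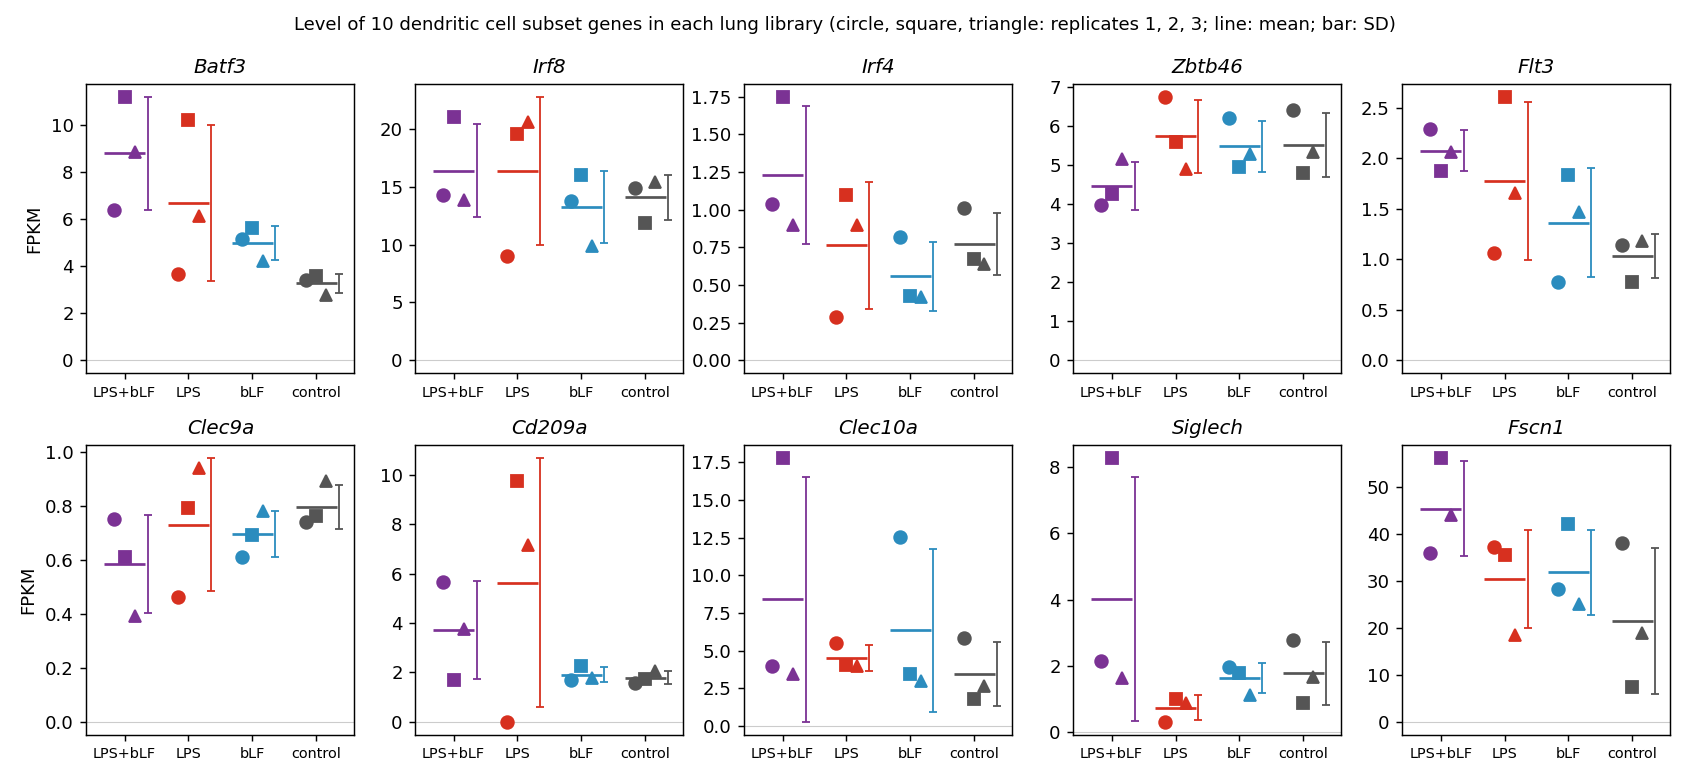
FPKM (vertical axes, linear) of each gene in the 12 lung libraries, grouped as LPS+bLF, LPS, bLF and control, with symbols for replicates, lines for means and bars for SD (n = 3 each). Batf3 was above the 3 control libraries in every other library, Cd209a was at 0 in LPS replicate 1, and LPS+bLF replicate 2 was highest for Siglech and Clec10a.

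Batf3, an AP-1 family transcription factor required for cDC1 development (gene ID 381319, GRCm38 chromosome 1, 191098414 to 191108943), showed the most regular pattern. It had 6.37, 11.16 and 8.84 FPKM in LPS+bLF lungs, 3.66, 10.22 and 6.12 in LPS lungs, 5.15, 5.60 and 4.2 in bLF lungs, and 3.41, 3.58 and 2.79 in control lungs. Every control library was below all 9 others, although the lowest LPS library, at 3.66 FPKM, was close to the highest control, at 3.58 FPKM. The counts behind these values were small, at 53, 92 and 74 in LPS+bLF lungs, 30, 83 and 51 in LPS lungs, 42, 46 and 35 in bLF lungs, and 27, 29 and 23 in control lungs. The log2 fold change of LPS+bLF against control was 1.48 ± 0.36 (SE, 3 libraries per group). This did not pass edgeR's quasi-likelihood test with Benjamini-Hochberg adjustment over 13735 genes (adjusted p = 0.832), and the 95% confidence interval, not adjusted for the number of genes, was 0.68 to 2.27. The differences from control were 1.05 ± 0.36 for LPS (95% interval 0.26 to 1.84, adjusted p = 0.599) and 0.62 ± 0.36 for bLF (95% interval -0.17 to 1.42, adjusted p = 1). LPS+bLF against LPS gave 0.43 ± 0.35, an interval of -0.34 to 1.2, and was 0.22 with LPS replicate 1 omitted, 0.19 with LPS+bLF replicate 2 omitted and -0.02 with neither of them.

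Irf8 directs cDC1, plasmacytoid and monocyte development (gene ID 15900, chromosome 8, 120736358 to 120756694). It had 14.30, 21.03 and 13.87 FPKM in LPS+bLF lungs, 9, 19.52 and 20.59 in LPS lungs, 13.75, 16.05 and 9.87 in bLF lungs, and 14.93, 11.89 and 15.41 in control lungs. The 4 groups overlapped, and the lowest value was in LPS replicate 1. Irf8 differed by 0.04 ± 0.27 on the log2 scale between LPS+bLF and LPS and by 0.24 ± 0.27 between LPS and control, with 95% intervals of -0.54 to 0.62 and -0.34 to 0.82. The first was -0.18 once LPS replicate 1 was omitted, -0.21 once LPS+bLF replicate 2 was, and -0.43 in its lowest alternative. The second was 0.47 when LPS replicate 1 was omitted and 0.05 when LPS replicate 3 was.

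Irf4, which cDC2 and plasma cells need (gene ID 16364, chromosome 13, 30749233 to 30766981), had 1.04, 1.75 and 0.90 FPKM in LPS+bLF lungs, 0.29, 1.10 and 0.90 in LPS lungs, 0.82, 0.43 and 0.42 in bLF lungs, and 1.01, 0.67 and 0.64 in control lungs. LPS+bLF lungs were all above bLF lungs, a pair that was not tested, and every other pair of groups overlapped. The log2 fold change with bLF was 0.75 ± 0.44 where LPS was present and -0.45 ± 0.45 where it was absent, and the test of that difference, the interaction of LPS and bLF, gave 1.2 ± 0.63 (95% interval -0.19 to 2.59, edgeR adjusted p = 1). Without LPS replicate 1 and LPS+bLF replicate 2 the interaction was 0.49. Leaving out 1 library moved LPS+bLF against LPS to between 0.37 and 1.03, and the lowest alternative gave 0.04.

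Zbtb46, a zinc finger factor of the conventional dendritic cell lineage and of endothelium (gene ID 72147, chromosome 2, 181371009 to 181493262), had 3.99, 4.27 and 5.16 FPKM in LPS+bLF lungs, 6.75, 5.58 and 4.89 in LPS lungs, 6.21, 4.96 and 5.28 in bLF lungs, and 6.41, 4.80 and 5.34 in control lungs. All groups overlapped, and its spread over the 12 libraries, a coefficient of variation of 15.6%, was the smallest among the members. LPS against control gave a log2 fold change of 0.02 ± 0.18, with a 95% interval of -0.38 to 0.42. Summed FPKM of 8 endothelial markers was 1321 to 1797 in LPS+bLF lungs, 1605 to 2779 in LPS lungs, 1618 to 1905 in bLF lungs and 1414 to 1763 in control lungs. The part of endothelial RNA in the Zbtb46 level was not tested.

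Flt3, the receptor for the cytokine Flt3 ligand (gene ID 14255, chromosome 5, 147330741 to 147400489), had 2.29, 1.88 and 2.06 FPKM in LPS+bLF lungs, 1.06, 2.61 and 1.66 in LPS lungs, 0.78, 1.84 and 1.47 in bLF lungs, and 1.14, 0.78 and 1.18 in control lungs. The 3 LPS+bLF libraries were above the 3 control libraries, whereas the LPS and bLF libraries overlapped control. In counts, LPS+bLF lungs had 102, 82 and 93 and control lungs 47, 34 and 54. The log2 fold change of LPS+bLF against control was 1.05 ± 0.35 (95% interval 0.28 to 1.82, edgeR adjusted p = 0.832), and that of LPS against control was 0.82 ± 0.35 (95% interval 0.05 to 1.59, adjusted p = 0.683). The value for LPS was 0.53 without LPS replicate 2. LPS+bLF against LPS gave 0.23 ± 0.34. Its ligand gene, Flt3l, had 33.94, 33.13 and 36.29 FPKM in LPS+bLF lungs, 12.34, 38.35 and 32.20 in LPS lungs, 32.21, 43.25 and 26.29 in bLF lungs, and 33.10, 27.58 and 34.18 in control lungs, with the lowest value in LPS replicate 1.

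Clec9a, a cDC1 receptor for actin filaments exposed by dead cells (gene ID 232414, chromosome 6, 129408862 to 129424764), had 0.75, 0.61 and 0.39 FPKM in LPS+bLF lungs, 0.46, 0.79 and 0.94 in LPS lungs, 0.61, 0.69 and 0.78 in bLF lungs, and 0.74, 0.76 and 0.89 in control lungs. No group was separate from another. Clec9a in LPS+bLF against control was -0.41 ± 0.33 on the log2 scale, with a 95% interval of -1.14 to 0.32. The interval of Batf3, on which cDC1 depend, lay above 0, but which cells carried Batf3 was not tested. Over the 9 tested cDC1 genes that are not members the median was -0.02. Xcr1, also a cDC1 gene, had 0.51, 0.35 and 0.17 FPKM in LPS+bLF lungs, 0.03, 0.50 and 0.55 in LPS lungs, 0.26, 0.39 and 0.31 in bLF lungs, and 0.58, 0.39 and 0.38 in control lungs.

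Cd209a, a mouse homologue of the C-type lectin DC-SIGN found on monocyte-derived dendritic cells and cDC2 (gene ID 170786, chromosome 8, 3743395 to 3748984), had 5.66, 1.70 and 3.75 FPKM in LPS+bLF lungs, 0, 9.74 and 7.15 in LPS lungs, 1.68, 2.26 and 1.77 in bLF lungs, and 1.58, 1.73 and 2.06 in control lungs. LPS replicates 2 and 3 were the highest of the 12 libraries and LPS replicate 1 was the lowest. Its count of 0 there allows up to 0.1795 CPM, the level of 3 counts, against counts of 208 and 157 in the other LPS libraries and of 33, 37 and 45 in control lungs. With all libraries, LPS against control was 1.6 ± 1.02 on the log2 scale (95% interval -0.66 to 3.85, edgeR adjusted p = 0.685). Without LPS replicate 1 it was 2.18 ± 0.39 (adjusted p = 0.0654), and without that library and LPS+bLF replicate 2 it was 2.18 ± 0.26 (adjusted p = 0.0197). This last fit was added after the data had been seen. On log2(FPKM + 0.1) with all libraries, limma gave 0.03 (adjusted p = 0.994). In edgeR, LPS+bLF against LPS was -0.52 ± 0.99, and between -1.10 and 0.08 when 1 library was left out.

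Mgl2, a galactose-type lectin of cDC2 and macrophages that is among the genes nearest to Cd209a in pattern, had 31.32, 12.78 and 18.44 FPKM in LPS+bLF lungs, 0.90, 35.68 and 29.72 in LPS lungs, 12.98, 10.82 and 9.63 in bLF lungs, and 12.19, 6.33 and 10.19 in control lungs. Ccl17, a dendritic cell chemokine, had 33.59, 9.02 and 18.99 FPKM in LPS+bLF lungs, 3.06, 25.16 and 28.14 in LPS lungs, 8.24, 11.98 and 8.54 in bLF lungs, and 6.53, 10.05 and 10.74 in control lungs. Both genes were lowest in LPS replicate 1, a library that enters the likeness of Mgl2 to Cd209a. In that library the summed FPKM of 7 natural killer cell markers was 9.62, against 209.9 and 243.7 in the other LPS lungs and 53.31 to 95.68 elsewhere, and Klre1, Cd3e and Ms4a1 were at 0. Their part in the Cd209a result was not tested.

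Clec10a, a galactose-type lectin of dendritic cells and macrophages (gene ID 17312, chromosome 11, 70166623 to 70170836), had 4.00, 17.76 and 3.45 FPKM in LPS+bLF lungs, 5.52, 4.07 and 3.99 in LPS lungs, 12.55, 3.48 and 3.01 in bLF lungs, and 5.84, 1.80 and 2.68 in control lungs. The high values were single libraries, LPS+bLF replicate 2 and bLF replicate 1. Its counts are uncertain, because the close paralogue Mgl2 lies on the same chromosome at 70130125 to 70137542 and the Clec10a count was not whole in 10 of 12 libraries, a sign of reads shared between genes. LPS+bLF against LPS was 0.87 ± 0.73 on the log2 scale with all libraries and -0.36 without LPS+bLF replicate 2, and LPS+bLF against control was 1.39 ± 0.74 with it and 0.17 without it. In bLF against control the value was 0.92 ± 0.73 with all libraries and -0.02 without bLF replicate 1. Ucp1, the brown fat thermogenin, was at 157.72 FPKM in LPS+bLF replicate 2, 57.37 in bLF replicate 1 and 88.08 in control replicate 1, which were also the highest Clec10a libraries of their groups, and at 0.2 FPKM or less in the other 9. The part of fat tissue in the Clec10a levels was not tested.

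Siglech, a sialic acid-binding receptor of plasmacytoid dendritic cells and of some macrophages (gene ID 233274, chromosome 7, 55768154 to 55779448), had 2.15, 8.28 and 1.62 FPKM in LPS+bLF lungs, 0.30, 1.00 and 0.88 in LPS lungs, 1.97, 1.77 and 1.11 in bLF lungs, and 2.78, 0.88 and 1.64 in control lungs. All 3 LPS+bLF libraries were above all 3 LPS libraries, while both groups overlapped control. Counts were 91, 357 and 69 in LPS+bLF lungs and 10, 44 and 39 in LPS lungs. LPS+bLF against LPS was 2.52 ± 0.69 on the log2 scale (95% interval 0.99 to 4.05, edgeR adjusted p = 0.689). It was 1.35 without LPS+bLF replicate 2, 2.16 without LPS replicate 1 and 0.99 without both. LPS against control was -1.21 ± 0.68 (95% interval -2.70 to 0.28), and was -0.77 without control replicate 1 and -0.85 without LPS replicate 1. The interaction was 2.51 ± 0.94 (95% interval 0.43 to 4.59, adjusted p = 1) with all libraries and 0.98 without both.

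Of the 16 plasmacytoid genes, 4 had their highest FPKM in LPS+bLF replicate 2, namely Siglech, Klk1, Spib and Pacsin1, and 6 in LPS replicate 3, namely Bst2, Runx2, Irf7, Tlr7, Tlr9 and Pld4. The mean of the list relative to control was 0.83 in LPS+bLF replicate 2, the highest of the 12 libraries, and includes Siglech itself. There Ly6d, Klk1, Cox6a2, Spib and Pld4 were also above all control libraries. Bst2, Tcf4, Tlr7, Klra17 and Ptprs lay within the control range and Irf7 below it. Cox6a2 was at 204.73 FPKM there and 235.41 in bLF replicate 1, where the skeletal muscle gene Ckm was at 155.03 and 138.98. In LPS+bLF replicate 3, Ckm was at 807.15 and Cox6a2 at 96.45 FPKM. Spib, a transcription factor of plasmacytoid and B cells, had 3.12, 8.02 and 2.45 FPKM in LPS+bLF lungs, 0.81, 2.33 and 3.78 in LPS lungs, 3.30, 3.61 and 0.92 in bLF lungs, and 1.71, 2.52 and 3.42 in control lungs. Pld4, an endosomal nuclease of plasmacytoid cells, B cells and macrophages, had 28.63, 26.33 and 29.29 FPKM in LPS+bLF lungs and 19.03, 35.71 and 40.89 in LPS lungs, and overlapped between them. Summed FPKM of 10 B cell markers was 230.9 to 593.9 in LPS+bLF lungs, 46.96 to 172.8 in LPS lungs, 77.41 to 204.9 in bLF lungs and 118.3 to 211.1 in control lungs, with the maximum in LPS+bLF replicate 2. The brown fat gene Ucp1 was at 157.72 FPKM in LPS+bLF replicate 2, 57.37 in bLF replicate 1 and 88.08 in control replicate 1, which were the highest Siglech libraries of their groups. The part of B cells, fat tissue or muscle in the Siglech result and in the plasmacytoid list was not tested.

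Fscn1, an actin-bundling protein of mature dendritic cells that is also made by other motile cells (gene ID 14086, chromosome 5, 142960355 to 142973189), had 35.94, 56.06 and 43.90 FPKM in LPS+bLF lungs, 37.13, 35.55 and 18.34 in LPS lungs, 28.32, 41.99 and 25.05 in bLF lungs, and 38.06, 7.29 and 18.94 in control lungs. The control libraries spread more than any other group, and control replicate 1 lay above LPS+bLF replicate 1. In LPS+bLF against control the log2 fold change was 1.19 ± 0.48 (95% interval 0.12 to 2.25, edgeR adjusted p = 0.832). This was 1.86 without control replicate 1. Ccr7, the chemokine receptor that guides mature dendritic cells to lymph nodes, had 7.88, 15.00 and 7.28 FPKM in LPS+bLF lungs, 1.40, 7.23 and 7.63 in LPS lungs, 5.5, 5.92 and 3.81 in bLF lungs, and 7.02, 6.41 and 8.36 in control lungs, so LPS+bLF lungs overlapped control.

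**Figure D2:**
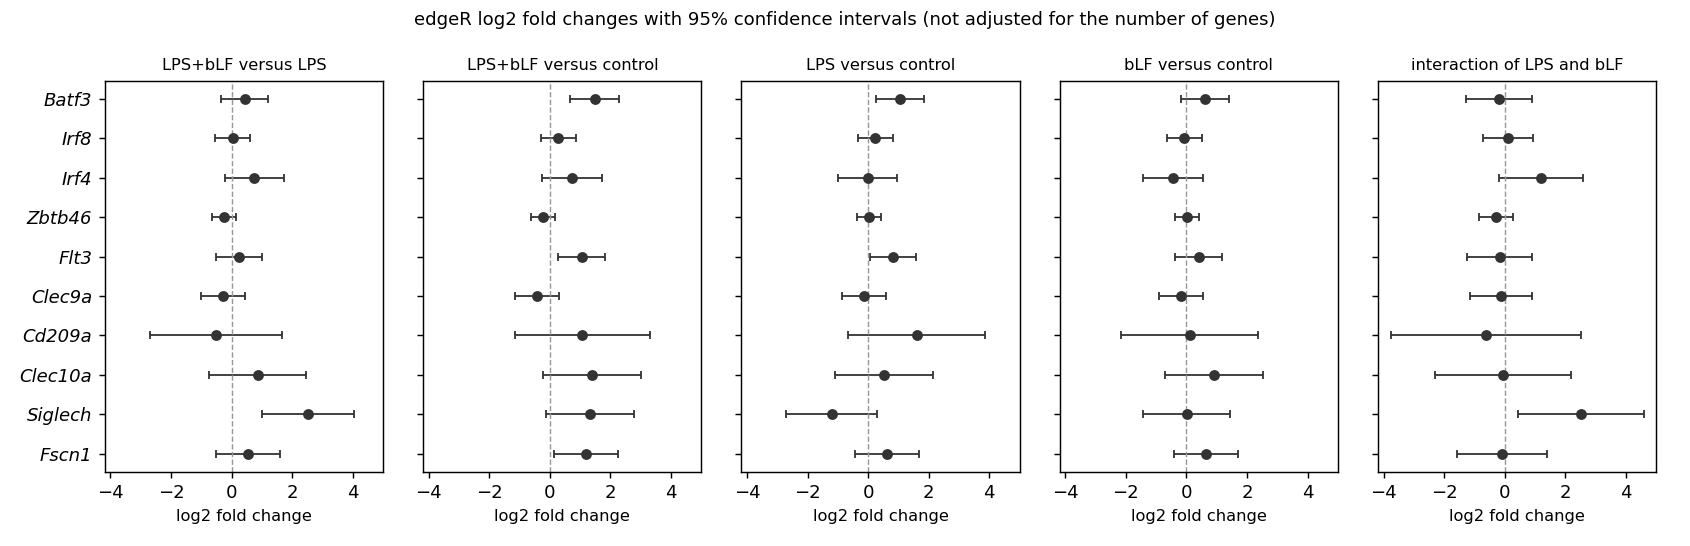
Log2 fold changes of the 10 genes (points) with 95% confidence intervals from edgeR (bars, not adjusted for the number of genes) in 5 panels, 1 for each comparison, 3 libraries per group. Intervals clear of 0 were those of Siglech in LPS+bLF versus LPS and in the interaction, of Batf3, Flt3 and Fscn1 in LPS+bLF versus control, and of Batf3 and Flt3 in LPS versus control.

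For LPS against control, edgeR called 0 of the 10 genes, and 0% of 13735 genes passed an adjusted p under 0.05. At an unadjusted p under 0.05, Batf3 and Flt3 were higher and none lower, 2 of 10 against 5.52% of all genes higher and 1.62% lower. Batf3 kept such a p in 15 of 17 alternatives and Flt3 in 7 of 17. DESeq2 and limma on log2(FPKM + 1) also called 0 members, against 1.01% and 0.0146% of all genes. The median log2 fold change of the members was 0.38, against -0.04 over all tested genes, and 7 of 10 were positive. Batf3 was the only member whose groups did not overlap in FPKM, a separation that 4% of all genes showed upward and 3.92% downward.

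For LPS+bLF against LPS, edgeR called 0 members and 0% of all genes, as did limma, while DESeq2 called 0 members and 0.051% of all genes. Siglech alone had an unadjusted p under 0.05 and alone was separate in FPKM. In all genes 3.27% were higher and 3.65% lower at that p, and 4.15% were separate upward and 4.91% downward. The median over the members was 0.33, against -0.02 over all genes.

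For bLF against control, edgeR called 0 members and 0% of all genes, DESeq2 called 0 members and 0.00728% of all genes, limma called 0 of either, and 0 members had an unadjusted p under 0.05, against 0.714% of all genes higher and 0.663% lower. Batf3 was separate upward in FPKM, as were 2.21% of all genes, and 5.74% were separate downward. The median over the members was 0.06, against -0.03 over all genes. The interaction likewise had 0 members called by edgeR, DESeq2 or limma, against 0%, 0.00728% and 0% of all genes. Siglech was the 1 member with an unadjusted p under 0.05, against 1.26% of genes positive and 1.54% negative.

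For LPS+bLF against control, edgeR called 0 members and 0% of all genes. Batf3, Flt3 and Fscn1 had unadjusted p under 0.05, 3 of 10 upward and 0 downward, against 2.63% of all genes higher and 2.18% lower. Batf3 and Flt3 were separate in FPKM, against 3.91% of all genes upward and 7.8% downward. DESeq2 gave no adjusted p for 5 of the 10 members and called 0 of the rest, against 0.0946% of all genes, and limma called 0 members and 0% of all genes. The median over the members was 1.07, against 0.00 over all genes. This comparison shares its control lungs with those of LPS and of bLF, and its LPS+bLF lungs with the comparison against LPS.

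A further 5 wider lists hold all 10 members, so counts are given for their other tested genes, of which edgeR called 0 in every comparison. In LPS against control, 1 of 9 cDC1 genes, 3 of 9 cDC2 genes, 3 of 11 plasmacytoid genes, 6 of 16 mature migratory genes and 4 of 14 genes of the Flt3 pathway and general dendritic cell markers were higher at an unadjusted p under 0.05, and 0 were lower, against 5.52% and 1.62% of all genes. Their median log2 fold changes were 0.28, 0.40, 0.07, 0.22 and 0.26, against -0.04 over all genes. The 13 monocyte and interstitial macrophage markers had 8 higher, 0 lower and a median of 1.12. In LPS+bLF against control the higher genes numbered 1, 1, 2, 5 and 3 in the same order of lists, 1 cDC2 gene was lower, and the medians were -0.02, 0.22, 0.32, 0.51 and 0.41, against 0.00 over all genes, of which 2.63% were higher and 2.18% lower.

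In LPS+bLF against LPS the lists had 0, 0, 1, 1 and 2 genes higher and 1, 1, 1, 2 and 1 lower, of 9, 9, 11, 16 and 14 tested. Among all genes 3.27% were higher and 3.65% lower at that unadjusted p. The medians were -0.05, -0.26, -0.11, 0.15 and -0.25, against -0.02 over all genes. The 13 monocyte and interstitial macrophage markers had 0 higher, 4 lower and a median of -0.44. In bLF against control 0 genes of the 5 lists had an unadjusted p under 0.05, against 0.714% of all genes higher and 0.663% lower. In the interaction 1 mature migratory gene was positive and 1 cDC2 gene and 1 gene of the Flt3 and general list were negative. Over all genes 1.26% were positive and 1.54% negative at that p.

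Among list genes that are not members, Wdfy4, which cDC1 need for cross-presentation, had 1.99, 2.23 and 2.36 FPKM in LPS+bLF lungs, 2.71, 2.83 and 2.66 in LPS lungs, 1.56, 1.86 and 1.43 in bLF lungs, and 1.69, 1.19 and 1.72 in control lungs. The LPS libraries were the 3 highest and did not overlap any other group. Its log2 fold change in LPS against control was 0.90 ± 0.16 (edgeR adjusted p = 0.1). Spi1, which encodes the myeloid transcription factor PU.1, had 96.99, 96.06 and 86.27 FPKM in LPS+bLF lungs, 144.94, 101.44 and 106.30 in LPS lungs, 71.00, 72.04 and 66.30 in bLF lungs, and 66.54, 37.61 and 65.23 in control lungs. LPS lungs were above the other groups, and LPS against control was 1.15 on the log2 scale (adjusted p = 0.130).

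The remaining list genes with the smallest unadjusted p in LPS against control, none of them called, included Sirpa, a cDC2 and macrophage receptor, at 1.04, the integrin genes Itgam at 1.03 and Itgax at 1.06, the costimulatory ligand gene Cd80 at 1.57 and the inhibitory ligand gene Cd274 at 0.69 on the log2 scale. Nfil3, a factor for cDC1 development, was at 0.80, Pld4 at 0.91 and Bst2, an interferon-inducible surface protein of plasmacytoid cells, at 0.43. In LPS+bLF against LPS, the corresponding genes Nfil3, Wdfy4, Itgam, Cd274 and Tlr7 had values of -1.05, -0.32, -0.81, -0.45 and -0.61, and Cd209d, Il4i1, Ly6d, Bcl11a and Btla values of 1.77, 2.11, 2.49, 1.52 and 1.00, each with an edgeR adjusted p of 0.689. The highest of these rested on single libraries. Il4i1, an amino acid oxidase, was at 13.55 FPKM in LPS+bLF replicate 2 and at 2.35 or less in the other 11, and Ly6d was at 71.31 FPKM in LPS+bLF replicate 3, where the keratinised epithelium gene Krt5 was at 98.34 FPKM.

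In LPS+bLF against control the genes with the smallest p in each list were Wdfy4 at 0.58 and Id2 at 0.26, Ltb4r1 at 1.01 and Klf4 at -0.69, Pld4 at 0.75 and Ly6d at 2.41, Marcksl1 at 1.17 and Ccl22 at 1.57, and Spi1 at 0.75 and Bcl11a at 1.45 on the log2 scale, each with an edgeR adjusted p of 0.832. Ccl22, a chemokine of mature dendritic cells, had 4.23, 8.54 and 6.09 FPKM in LPS+bLF lungs, 1.39, 5.94 and 6.85 in LPS lungs, 2.32, 3.94 and 2.08 in bLF lungs, and 1.97, 2.18 and 2.42 in control lungs. LPS+bLF lungs were all above control lungs, whereas LPS lungs straddled them. In bLF against control, Nfil3, Naaa, Notch2, Cd209d, Pld4, Cox6a2, Marcksl1, Ccr7, Spi1 and Kmo lay between -0.69 and 0.875, with an edgeR adjusted p of 1 for each. In the interaction, Ly6d had 2.94, Il4i1 2.69, Ccr7 1.45 and Btla 1.16, and Wdfy4, Naaa, Itgam, Sirpa, Bst2 and Spi1 were -0.43, -0.33, -0.89, -0.66, -0.35 and -0.71, again with an adjusted p of 1.

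**Figure D3:**
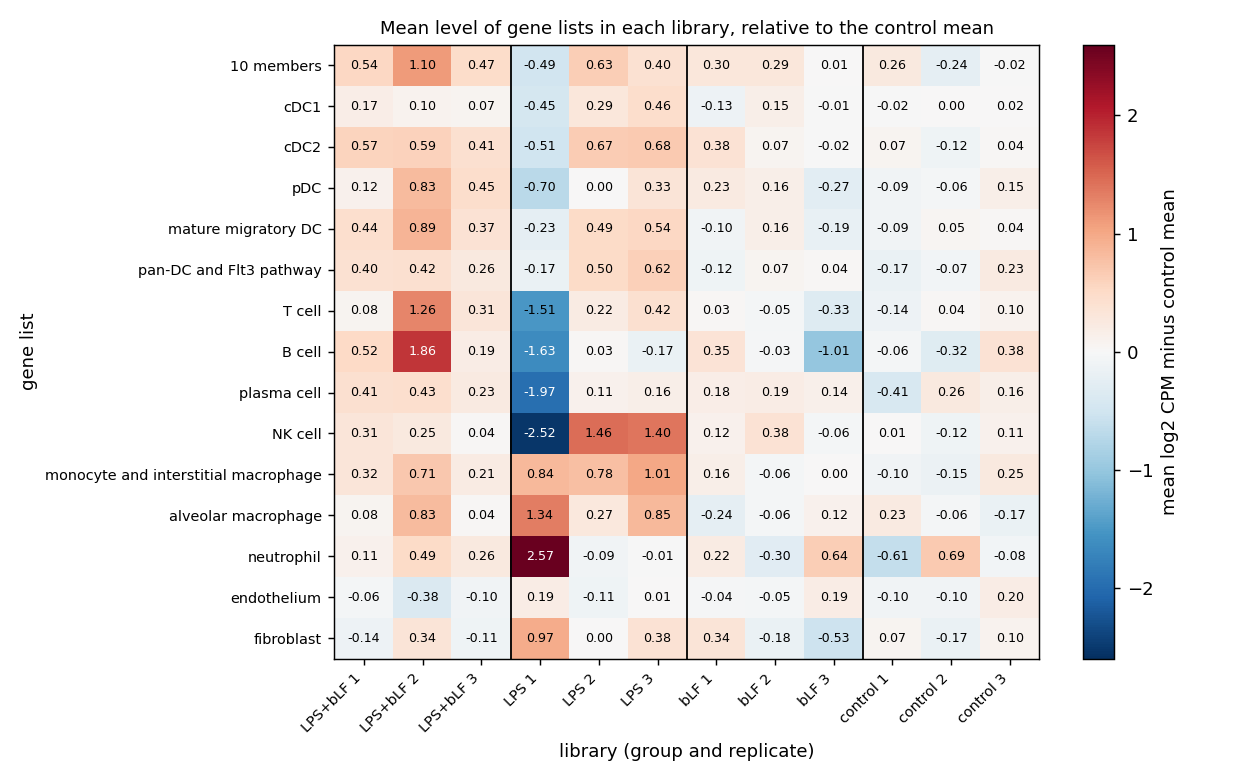
Mean log2 CPM of each gene list (rows) in each library (columns, grouped as LPS+bLF, LPS, bLF and control), given as the difference from the control mean, with the number in each cell. The 10 members stood at 0.54, 1.10 and 0.47 in LPS+bLF lungs and at -0.49, 0.63 and 0.40 in LPS lungs. LPS replicate 1 was low in the means of the lymphocyte lists and high in the mean of the neutrophil list, whose genes did not all rise.

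Lists of other blood cells moved only in part with the members in LPS replicate 1 and LPS+bLF replicate 2. The mean of the members relative to control was -0.49 in LPS replicate 1, where T cell, B cell, plasma cell and natural killer lists stood at -1.51, -1.63, -1.97 and -2.52. The means of the neutrophil, alveolar macrophage, and monocyte and interstitial macrophage lists went the other way there, at 2.57, 1.34 and 0.84. Of 10 neutrophil and 10 alveolar macrophage genes, 5 and 4 had their highest FPKM there, among them Retnlg at 593.58 and Marco at 249.39 FPKM. Csf3r at 11.84, Cxcr2 at 2.29 and S100a8 at 224.76 FPKM lay within the control range. Siglecf at 0.22, Ear2 at 39.52 and Car4 at 182.47 FPKM were at their lowest of the 12 libraries. In LPS+bLF replicate 2 the members stood at 1.10, the B cell list at 1.86 and the T cell list at 1.26. The plasma cell, natural killer and neutrophil lists were at 0.43, 0.25 and 0.49 there. The alveolar macrophage list was at 0.83, and the monocyte and interstitial macrophage list at 0.71. Of the alveolar macrophage genes, Pparg at 40.19, Marco at 36.44, Krt79 at 5.22 and Olr1 at 1.10 FPKM were above all control libraries. Siglecf, Plet1 and Car4 were below all of them, and Ear2, Chil3 and Mrc1 within their range. Pparg was also at 35.36 FPKM in control replicate 1 and 17.84 in bLF replicate 1, where Ucp1 was at 88.08 and 57.37. Summed FPKM of 13 monocyte and interstitial macrophage markers was 226.5 to 358.0 in LPS+bLF lungs, 310.5 to 484.7 in LPS lungs, 230.0 to 247.8 in bLF lungs and 187.4 to 259.1 in control lungs. Their part in the members' levels was not tested.

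**Figure D4:**
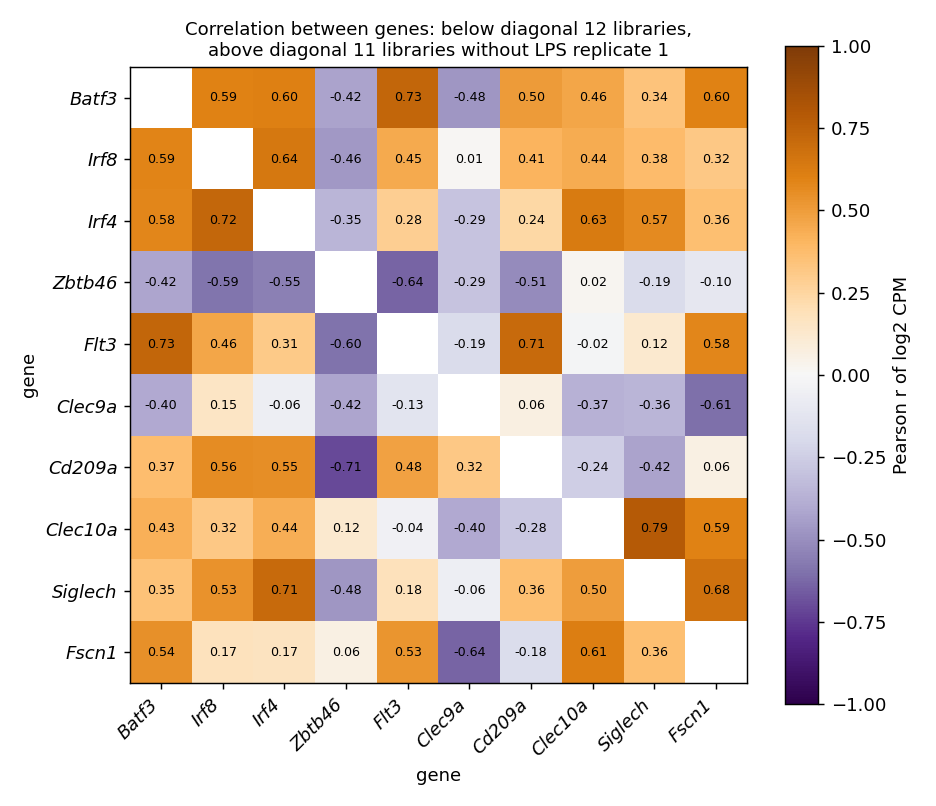
Pearson r of log2 CPM between each pair of the 10 genes, over 12 libraries below the diagonal and over the 11 libraries without LPS replicate 1 above it. Batf3 with Flt3 stood at 0.73 in both, whereas Cd209a with Siglech was 0.36 below the diagonal and -0.43 above it.

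The members did not vary as 1 block across libraries. These correlations are a description over 12 libraries that share 4 groups, and no p is given. Batf3 and Flt3 gave r = 0.733, and 0.728 without LPS replicate 1, and Irf8 and Irf4 gave 0.719 and 0.643. Clec9a was at -0.400 with Batf3 and at -0.638 with Fscn1. Siglech with Clec10a was 0.496 over 12 libraries and 0.788 without LPS replicate 1, and Zbtb46 with Cd209a was -0.707 and -0.511. Of all 13735 tested genes, the 3 nearest to Batf3 were Tnfrsf18, a receptor of activated T cells, at 0.924, Crybg1 at 0.907 and Tmub1 at 0.893. Nearest to Flt3 were Lyl1 at 0.882, Armc7 at 0.875 and Lsp1 at 0.869, and nearest to Irf8 were Dusp2 at 0.939, Kif21b at 0.926 and Sorcs2 at 0.912. Cd209a lay nearest to Gjb1 at 0.978, to H2-DMa, which loads peptides on MHC class II, at 0.976, and to Mgl2 at 0.973. These rankings depend on LPS replicate 1. Without it the 3 genes stood at 0.923, 0.910 and 0.913, and the nearest to Cd209a were Pak1 at 0.954, which was -0.296 over 12 libraries, and Ccl17 at 0.936. Without that library the first neighbour of Batf3 and of Irf8 was unchanged. Actr2 at 0.929 was then nearest to Flt3, Apoc4 at 0.939 to Siglech, Eif4b at 0.973 to Fscn1, Sh3kbp1 at 0.951 to Clec10a and Scrn3 at 0.874 to Zbtb46. Over 12 libraries these neighbours stood at 0.232, 0.117, 0.818, 0.733 and 0.051, in the same order. Apoc4 was at 0.21 FPKM or less outside LPS replicate 1, control replicate 1, bLF replicate 1 and LPS+bLF replicate 2. For Siglech the nearest were Sdr39u1 at 0.957, Tmem134 at 0.952 and Car11 at 0.947, and for Fscn1 they were Fbxw4 at 0.937, Ap1b1 at 0.935 and Grk2 at 0.934. Clec10a was nearest to Gpat3 at 0.945, Gata4 at 0.941 and Doc2g at 0.936, and Zbtb46 to Rps6kl1 at 0.887, Slmap at 0.868 and Mpv17l at 0.854.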

How the data were processed

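Polyadenylated RNA of mouse lung was sequenced in 12 libraries of 17920 genes. HISAT2 2.1.0, RSEM 1.2.8 and mm10 are named in the submitters' processing notes without a role. Strandedness and annotation are not given in the sources used here. The deposited values are, per the file headers, an expected count (4.1 to 5.9% of genes not whole, tolerance 1e-06) and an FPKM for each gene. Expected counts were rounded, the filter was 0.5 FPKM or more in 3 or more libraries (13735 genes), and edgeR 4.0.16 (R 4.3.3) was fitted to all libraries with TMM factors, 4 group means and 8 residual degrees of freedom. The 5 two-sided comparisons each had Benjamini-Hochberg adjustment and a threshold of 0.05. Their p-values set group differences against the spread between libraries of 1 mouse each, which edgeR moderates over genes. SEs come from the F statistic. DESeq2 1.42.0 and limma 3.58.1 were alternatives, as were other filters, scalings and left-out libraries. Members, lists and alternatives were chosen with earlier results of these data known. Text names all members, the 2 list genes with the smallest p in each of the 5 wider dendritic cell lists and comparison, and the 3 nearest genes by r for members averaging at least 1 FPKM. Xcr1, Ccr9, Flt3l, Spib, Ccl17, Ccr7 and Pld4 beside the members, the first neighbours without LPS replicate 1 and the plasmacytoid genes named by their highest library were named after their values were seen. Same-numbered libraries were not treated as pairs in the main fit. Promoters and coordinates come from RefSeq GRCm38.p6, and 10 of 10 members were matched by gene ID. Counting limits cover counting error only.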

Additional observations from a re-analysis of the deposited data

How the results depend on the processing

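The 50 fold changes of the members were recomputed under each alternative, giving 880 values, of which 59 had the other sign, all for values without a call, 850 stayed within 1 SE and 29 moved further. One more, Cd209a in LPS against control, passed the threshold without LPS replicate 1 and LPS+bLF replicate 2 (2.18, adjusted p 0.0197), so 1 member was called there and 0 under every other alternative, and 32 genes in all, with 2 genes in the interaction. Genes called over the whole table, 0 in each comparison with edgeR, numbered 139 in LPS against control, 7 in LPS+bLF against LPS, 1 in bLF against control, 13 in LPS+bLF against control and 1 in the interaction with DESeq2, and 2 in LPS against control with limma on log2(FPKM + 1). Leaving out 1 library at a time gave 0 to 25 genes in LPS against control and 0 to 2 in LPS+bLF against LPS, the highest without LPS replicate 1 in both. With the replicate number as a block, 0 genes were called and Siglech in LPS+bLF against LPS was 2.33 (adjusted p 0.851). The deviations of the 18 same-numbered pairs correlated at -0.694 to 0.571, with a median of 0.047, and 5 exceeded 0.1. Pairs with other numbers had a median of 0.018. With 3 libraries per group this check cannot decide whether the numbers pair the libraries. Leaving out 1 library moved Batf3 in LPS+bLF against control to between 1.24 and 1.68, Flt3 to between 0.95 and 1.16 and Fscn1 to between 0.81 and 1.86. Siglech in LPS+bLF against LPS ranged from 1.35 to 2.90 when 1 library was left out. In LPS against control, Flt3 ranged from 0.53 to 1.02 and Siglech from -1.5 to -0.77. Flt3 and Fscn1 depended on scaling in whether groups were separate. With TMM scaling, Flt3 in LPS and Fscn1 in LPS+bLF were separate from control, and in deposited FPKM they were not. With 3 libraries per group and counts as low as 23 for Batf3, depth and replicate number limit the precision.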
